A study of Rattus norvegicus with 288 samples.

Results

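The genes described here were Atf3, Atf4, Ddit3, Ddit4 and Trib3, which encode regulators of the response of cells to stress. They were chosen by name, as probe sets annotated to 1 of these symbols alone, and where a gene had several, the probe set of highest mean signal in a tissue was kept. All 5 genes were on the arrays, out of 14218 genes with a single symbol that were tested in each tissue, and 7 probe sets carried their symbols, 3 of them for Trib3. Each of the 5 genes was read from the same probe set in the 3 tissues.

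When translation is held back by phosphorylation of the initiation factor eIF2alpha, in the integrated stress response, most mRNAs are translated less while that of Atf4 is translated more. ATF4, a bZIP transcription factor, then raises the transcription of genes for amino acid synthesis and import and of Ddit3, Atf3 and Trib3. Ddit3 encodes CHOP, a bZIP factor of the unfolded protein response; Atf3 encodes a bZIP factor that is also an immediate early gene; Trib3 encodes a pseudokinase that binds CHOP and the kinase AKT. Ddit4 encodes REDD1, an inhibitor of mTORC1 whose transcription is known to rise with hypoxia, glucocorticoids and ATF4. Arrays measure the mRNA only, so the protein levels of ATF4 and CHOP were not measured here.

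Study 1 profiled bone marrow, heart and liver of 96 male Sprague-Dawley rats aged 7 to 8 weeks on Affymetrix arrays, 1 for each tissue of a rat, with 4 rats for each of 8 treatments at 1, 6 and 24 h. Bone marrow was flushed from a femur, the heart sample was the apex with the ventricles, and the liver sample came from the left lateral and median lobes. Each rat had an intravenous agent, either temsirolimus (0.3 mg/kg), which inhibits mTOR, or the vehicle of temsirolimus, and after it an oral agent. The oral agent was sunitinib at 5 mg/kg, sorafenib at 25 mg/kg, both inhibitors of receptor tyrosine kinases, sterile water as the vehicle of sunitinib, or F68/PG/PEG400 as the vehicle of sorafenib. The groups were therefore temsirolimus then sunitinib, temsirolimus then sorafenib, temsirolimus then water, temsirolimus then F68/PG/PEG400, temsirolimus vehicle then sunitinib, temsirolimus vehicle then sorafenib, temsirolimus vehicle then water, and temsirolimus vehicle then F68/PG/PEG400. No rat was left without injection and gavage, so the effect of dosing itself was not measured apart. A drug alone was sunitinib or sorafenib after the temsirolimus vehicle, or temsirolimus before either oral vehicle, each set against its own vehicle.

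Levels are given as log2 RMA signals, in which a difference of 1 stands for a 2-fold change, and the 3 tissues were normalized apart. Each change below is a difference of group means in limma with its standard error (SE), and a gene was called, or said to rise or fall, when its p, adjusted over the 14218 genes of the comparison by the Benjamini-Hochberg method, was under 0.05. The p-values measure the spread between rats. In each group 2 rats were on 1 set of array plates (set A) and the other 2 on another (set B), and the set was a term in every fit. In bulk tissue, fewer cells of a type and less RNA per cell cannot be told apart.

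Markers of the dissected tissue were high in each: cardiac muscle markers (9 of 10 on the arrays) averaged 13.54 to 14.21 in hearts, hepatocyte markers (15 of 15) 14.10 to 14.57 in livers, and erythroid markers (8 of 10) 12.36 to 13.48 in bone marrow. Individual arrays stood apart. In the bone marrow of rat 4M45 (temsirolimus then F68/PG/PEG400, 6 h) the neutrophil and granulocyte markers (6 of 11) averaged 11.15. The median of the 96 bone marrow arrays was 12.70. Its erythroid (12.36), macrophage (8.92, 8 of 9 genes), B cell (7.93, 2 of 6) and adipocyte (6.36) levels were also the lowest of the 96. Its hepatocyte (6.27) and cardiac muscle (5.91) levels were the highest. Those of skeletal muscle, T and NK cells and endothelial cells were neither. In the heart of rat 6M68 (temsirolimus then sorafenib, 1 h) the hepatocyte markers averaged 14.10, where the median heart had 6.39. The 14 hearts with the highest hepatocyte level, at 9.49 and above, all came from temsirolimus rats, of which there were 48, and the highest heart of a rat without temsirolimus had 8.83. Of the 14, all but the hearts of rats 6M68 and 5M55 were of array set A. At 6 h the temsirolimus hearts of set A had 9.61 to 11.48, and those of set B 6.11 to 6.76. Hearts of set A without temsirolimus had 6.10 to 7.12 at that time. The paper singled out the bone marrow array of rat 4M45 and the liver array of rat 4M48 by quality measures, and the liver of rat 7M78 (temsirolimus vehicle then sunitinib, 24 h) had the lowest hepatocyte level of the livers, 14.10. Results found to rest on these arrays are given with and without them.

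In the 24 rats that had vehicles only, Atf4 averaged 12.24 ± 0.14 (mean ± SD) in bone marrow, with 11.40 ± 0.16 for the heart and 11.86 ± 0.20 for the liver. Ddit3 averaged 8.53 ± 0.18, 9.52 ± 0.20 and 8.16 ± 0.20 in the same order of tissues, so that the heart had the highest signal, and over all 96 hearts it ran between 8.82 and 10.49. Trib3 averaged 7.55 ± 0.26 in bone marrow, 6.50 ± 0.12 in the heart and 8.15 ± 0.27 in the liver, which was highest. The ranking of tissues differed from gene to gene. It is a description, since the arrays of the tissues were scaled apart.

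Atf3 had the lowest signal in bone marrow, 4.44 ± 0.12 in the vehicle rats and 4.14 to 4.98 over all 96 rats, and in liver it averaged 5.93 ± 0.28. In heart it averaged 6.77 ± 0.85 and ran between 5.25 and 9.15 over the 96 rats, a spread that the other 2 tissues did not have. Ddit4 averaged 8.61 ± 0.38 in bone marrow, and the heart had 8.97 ± 0.48 and the liver 8.39 ± 0.52. The SD of Ddit4 between rats of a group, 0.310 in bone marrow, 0.387 for the heart and 0.524 for the liver, lay at percentiles 93.8, 96.1 and 98.7 of all genes, and the median gene had 0.163, 0.146 and 0.171. Atf4 in heart (0.121) and Trib3 in heart (0.128) varied less than the median gene. The level of Trib3 in heart lay at percentile 28.4 of all genes. Its other probe sets followed the kept one there with r of 0.36 and 0.38, against 0.84 to 0.90 in bone marrow and liver.

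**Figure D1:**
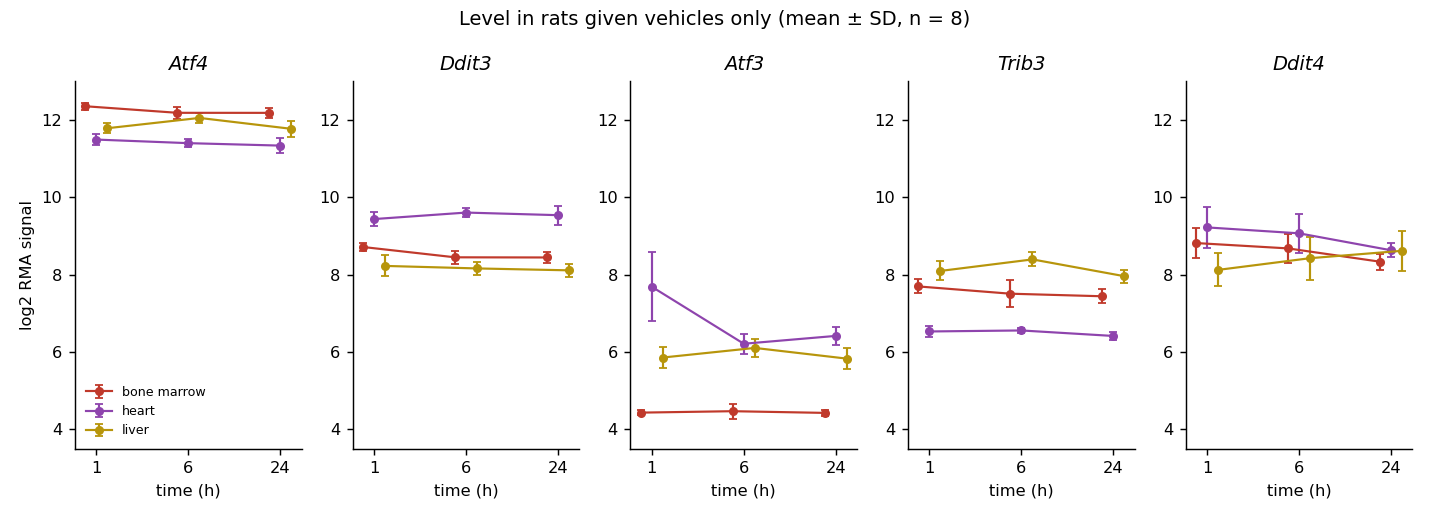
Level of each of the 5 genes (log2 RMA signal) against time after the oral dose (h) in rats given vehicles only; points are means of 8 rats, bars their SD, and colours the tissues. Atf3 in heart had a mean of 7.69 at 1 h and 6.21 at 6 h, while Atf4 stayed above 11 in every tissue.

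ATF4 binds its targets with a C/EBP partner at C/EBP-ATF composite elements, whose core was searched as TGATGNAA on both strands of the promoters (250 bases before to 50 after the start, RefSeq, rat build GRCr8). Of all 33469 promoters, 3.98% held the core. Among the 5 genes, 4 had a promoter in the table (Ddit3, Ddit4, Trib3 and Atf4; Atf3 is named only), and 1 of them, Trib3, held it. Of the genes whose pattern over the groups was most like that of a member, described below, Chac1 and Herpud1 held it. The 250 bases before the start are shown for these 3 genes, since Trib3 and Chac1 varied together in bone marrow and Herpud1 was the gene most like Ddit3. Capitals mark the core, which in each lies on the reverse strand, with its first base 21 bases before the start in Trib3, 167 in Chac1 and 184 in Herpud1.
Trib3, chr3:161275534-161275783, minus strand: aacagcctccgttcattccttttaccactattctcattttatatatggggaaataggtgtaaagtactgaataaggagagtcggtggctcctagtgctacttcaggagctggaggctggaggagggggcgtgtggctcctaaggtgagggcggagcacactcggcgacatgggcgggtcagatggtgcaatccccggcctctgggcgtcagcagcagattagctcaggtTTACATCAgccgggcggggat
Chac1, chr3:126795881-126796130, plus strand: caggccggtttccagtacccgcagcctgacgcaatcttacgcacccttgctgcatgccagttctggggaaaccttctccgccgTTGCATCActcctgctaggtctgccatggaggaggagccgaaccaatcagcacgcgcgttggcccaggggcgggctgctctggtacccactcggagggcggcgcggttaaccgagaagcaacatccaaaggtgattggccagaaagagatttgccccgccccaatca
Herpud1, chr19:10614708-10614957, minus strand: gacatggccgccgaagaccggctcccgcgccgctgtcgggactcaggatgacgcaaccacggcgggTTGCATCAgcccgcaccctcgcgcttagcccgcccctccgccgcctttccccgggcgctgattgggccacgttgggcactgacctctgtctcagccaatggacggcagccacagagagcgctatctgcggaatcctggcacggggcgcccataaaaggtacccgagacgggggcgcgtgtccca
A match is a description of the letters and not of binding. The core of the hypoxia element, ACGTG, which 19.3% of all promoters held, was found in the promoters of Atf4, Ddit3 and Ddit4, with the first base 138 bases before the start in Ddit4. The cAMP response element TGACGTCA (1.83% of promoters), the ER stress element (0.0657%) and the palindromic glucocorticoid response element (0.0149%) were not in the promoters of these 4 genes. No match of 1 motif overlapped one of another, and in Atf4 the hypoxia core matched on both strands at 1 place.

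Few of the drug comparisons moved the 5 genes past the threshold. With temsirolimus alone, 1 of 45 tests (5 genes, 3 tissues, 3 times) was called, where 0.439% of all gene tests were. With sunitinib alone 0 of 45 were called, beside 1.79% of all gene tests, and with sorafenib alone 0 of 45, beside 1.02%. At an unadjusted p under 0.05, 18 of these 135 tests passed in limma, beside 10.1% of all gene tests. Of the 2296 calls behind the 1.79% for sunitinib, 1420 came from liver at 24 h, which includes the array of rat 7M78. The genes called there ran from 0 to 6210 when 1 of the 8 rats was left out. In the rats that had a drug together with the other agent, 3 of 135 were called (1.34% of all gene tests), and against both vehicles the combinations gave 1 of 90 (0.42%). No test of the interaction of temsirolimus with an oral drug was called among 90 (0.000781% of all gene tests were called), and 5 of the 90 had an unadjusted p under 0.05, as did 7.09% of all gene tests.

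The size of the changes differed between genes and tissues. Over 9 tests in a tissue (3 drugs alone, 3 times), the median size of the change was 0.065 for Atf4 in liver and 0.055 for Trib3 in heart, and 0.20 for Ddit3 in heart and Ddit4 in liver. Read again in the rats given the other agent as well, which were other rats, 30 of 45 changes with temsirolimus kept their direction, as did 25 of 45 with sunitinib and 26 of 45 with sorafenib. Over all genes 51.4% of changes with temsirolimus kept their direction, 52.7% with sunitinib and 55.1% with sorafenib, so that the counts for sunitinib and sorafenib lay near those of all genes. The effect of a drug between times was called for 0 of 45 (0.826% of all gene tests). The effect of sorafenib minus that of sunitinib, which had their own vehicles, was called for 0 of 45 too (0.00938%), with 3 at an unadjusted p under 0.05 in limma, beside 6.33% of all gene tests.

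**Figure D2:**
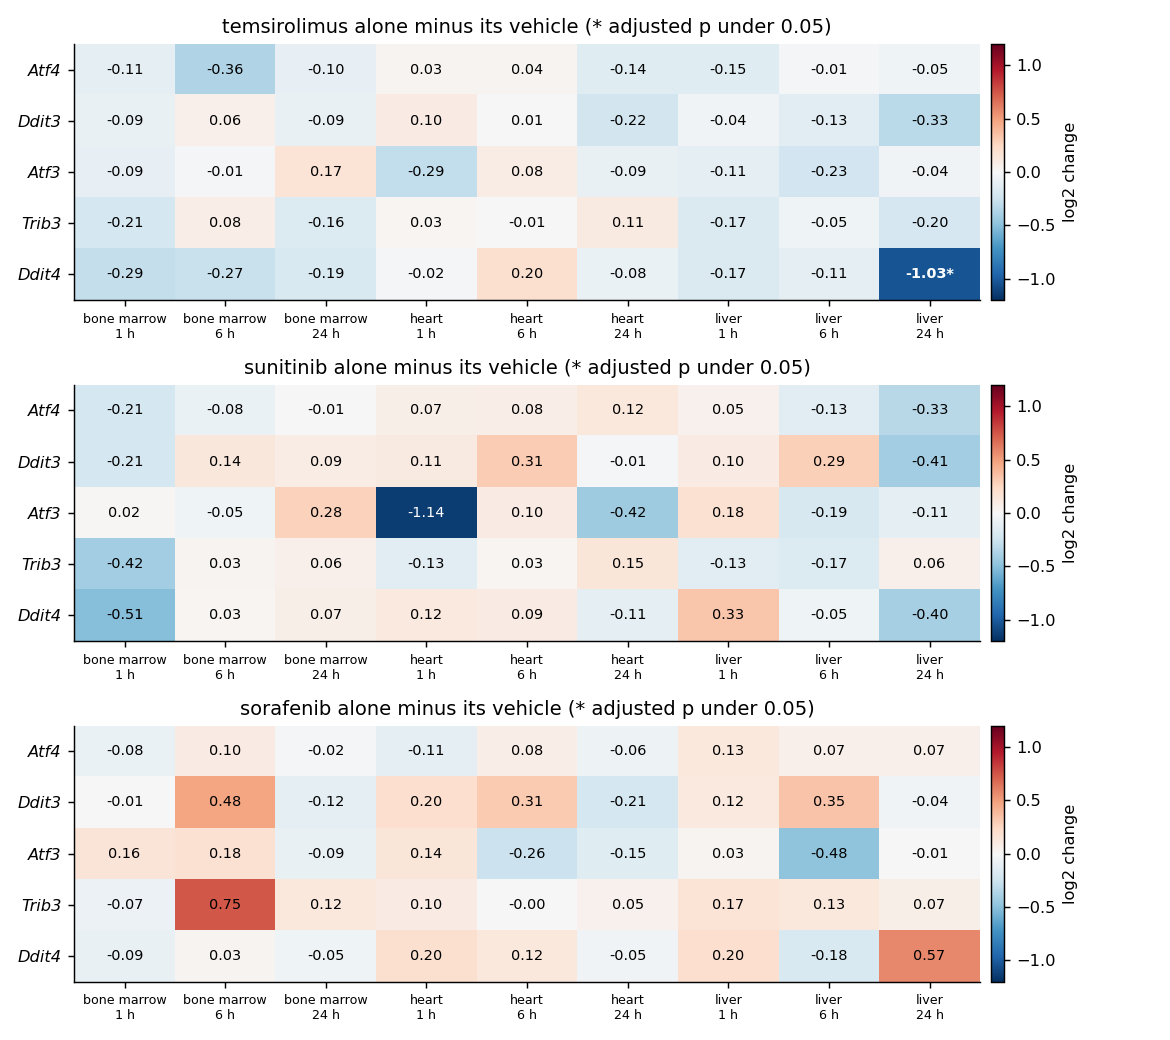
Change of each gene (colour and printed value, log2) with temsirolimus, sunitinib or sorafenib alone minus its vehicle, by tissue and time; an asterisk marks an adjusted p under 0.05. The only asterisk is that of Ddit4 in liver at 24 h with temsirolimus, at -1.03, and the change of Atf3 in heart at 1 h with sunitinib, -1.14, has none.

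Ddit4, which encodes the mTORC1 inhibitor REDD1, fell in liver 24 h after temsirolimus. Its log2 signal was 7.79, 6.79, 7.48 and 7.99 in the rats given temsirolimus then water, against 8.82, 8.58, 9.29 and 9.01 in those given the temsirolimus vehicle then water. All 4 temsirolimus rats lay below all 4 vehicle rats. With F68/PG/PEG400 as the oral vehicle it was 8.41, 7.55, 7.53 and 7.10 after temsirolimus, against 7.95, 7.95, 9.05 and 8.28 after the temsirolimus vehicle. Here the groups overlapped through 1 temsirolimus rat, which at 8.41 lay above 3 of the 4 vehicle rats.

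Over both oral vehicles Ddit4 averaged 7.58 ± 0.50 after temsirolimus and 8.61 ± 0.51 after its vehicle (SD, n = 8 each). The change was -1.03 ± 0.25 (SE, 95% confidence interval -1.54 to -0.53), or 0.488-fold, with an adjusted p of 0.00913 in limma, where 3.09% of all genes were called. The change was -0.69 in array set A and -1.38 in set B. It was called with any 1 of the 16 rats left out, with adjusted p between 0.00267 and 0.0486, and was -0.91 (adjusted p = 0.0486) without the liver array of rat 4M48. Within 1 oral vehicle it was not called, at -1.41 ± 0.36 with water (adjusted p = 0.065) and -0.66 ± 0.36 with F68/PG/PEG400 (adjusted p = 0.439).

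The rats that also had an oral drug gave a second set of arrays. Ddit4 was 7.74, 7.21, 7.01 and 7.44 after temsirolimus then sunitinib, against 8.24, 6.92, 8.54 and 10.40 after the temsirolimus vehicle then sunitinib. The value of 6.92 is that of rat 7M78, and without it the groups did not overlap. It was 7.42, 8.44, 7.57 and 7.35 after temsirolimus then sorafenib, against 9.14, 8.40, 8.59 and 9.37 after the temsirolimus vehicle then sorafenib, with 1 rat of each group crossing. Over both oral drugs the level was 7.52 after temsirolimus and 8.70 after its vehicle, a change of -1.18 ± 0.25 (0.441-fold, adjusted p = 0.00256, limma), where 7.86% of all genes were called. The change was -0.48 in set A and -1.88 in set B, and -1.43 without the 3 arrays of rats 7M78, 6M68 and 4M46, of which only that of 7M78 is a liver. The value of 10.40, from rat 7M84 of set B, was the highest of the 96 livers. With any 1 of the 16 rats left out the change ran from -1.43 to -0.88 and was called (limma, adjusted p between 6.2e-05 and 0.0114).

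Against both vehicles, temsirolimus then sunitinib gave a Ddit4 level of 7.35 ± 0.31, against 8.92 ± 0.30 after the temsirolimus vehicle then water (SD, n = 4 each), with no overlap. The change was -1.58 ± 0.36 (0.335-fold, adjusted p = 0.0102, limma; 1.06% of genes called); without rat 5M59 it was -1.41 with an adjusted p of 0.0625. Temsirolimus then sorafenib against both vehicles gave -0.61 ± 0.36 (adjusted p = 0.704), in a comparison that called 0.535% of genes. These comparisons share the vehicle rats with those of temsirolimus alone. Sorafenib alone at 24 h gave +0.57 ± 0.36 for Ddit4 in liver (adjusted p = 0.92).

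**Figure D3:**
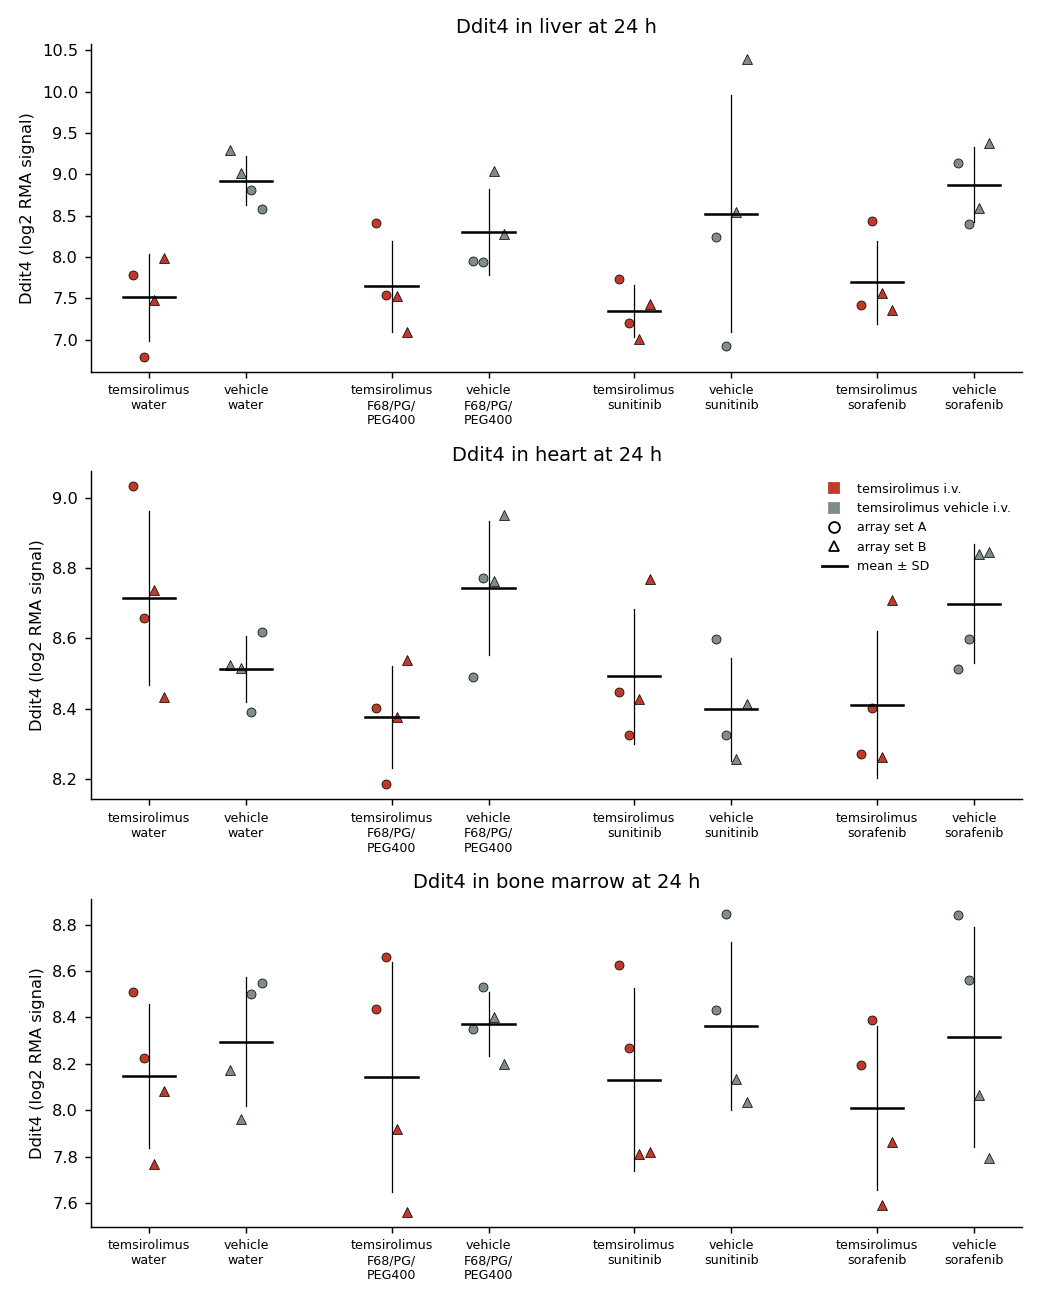
Ddit4 (log2 RMA signal) at 24 h in liver, heart and bone marrow for each rat, with temsirolimus groups left of the group given its vehicle with the same oral agent; circles are array set A, triangles set B, and lines the mean ± SD of 4 rats. In liver the means of the 4 temsirolimus groups lie between 7.35 and 7.70 and those of their vehicle groups between 8.30 and 8.92, and the vertical axes differ between tissues.

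In the other tissues and at earlier times Ddit4 was not called after temsirolimus alone. In liver the change was -0.17 at 1 h and -0.11 at 6 h (SE 0.25 each). The heart gave -0.02, 0.20 and -0.08 at 1, 6 and 24 h (SE 0.19), and the bone marrow -0.29, -0.27 and -0.19 (SE 0.15), of which the change at 6 h was -0.04 without rat 4M45. At 24 h the temsirolimus comparison called 0.317% of genes in heart and 0.352% in bone marrow, and in rats with an oral drug 0.281% and 0.724%, none of them among the 5 genes. A test of the difference between tissues, made within rats, called Ddit4 at 24 h (F test, adjusted p = 0.0295, where 1.23% of genes were called). The change in liver minus that in heart was -0.95 ± 0.25, and that in bone marrow minus that in heart -0.10 ± 0.25. This was the only call among 45 such tests (0.694% of all gene tests); it was lost with arrays of a rat taken as independent (adjusted p = 0.117), without array-set terms (0.169), without rats 4M45 and 4M48 (0.0979) and when any 1 of 9 of the 16 rats was left out (1M5, 1M11, 1M12, 2M17, 2M23, 3M30, 3M35, 4M47 and 4M48, adjusted p up to 0.166). The difference of the temsirolimus effect between times in liver had an adjusted p of 0.74 in the F test.

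Among the markers, those of endothelial cells (6 of 7 on the arrays) averaged 8.62 to 9.10 in the 8 livers at 24 h after temsirolimus alone, against 8.47 to 8.72 in the 8 after the vehicles. The hepatocyte markers averaged 14.34 to 14.51 after temsirolimus and 14.48 to 14.56 after the vehicles. The endothelial level of 9.10 and the hepatocyte level of 14.34 were both those of the liver of rat 4M48. The part of these markers in the change of Ddit4 was not tested.

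None of the other 4 genes was called in this comparison. In liver at 24 h after temsirolimus alone, Atf4 changed by -0.05, Atf3 by -0.04 and Trib3 by -0.20, all with adjusted p above the threshold. Ddit3, which encodes CHOP, was 7.96, 7.77, 7.68 and 7.70 after temsirolimus then water, against 8.04, 8.04, 8.05 and 8.47 after the temsirolimus vehicle then water. With F68/PG/PEG400 it was 7.67, 7.70, 7.69 and 8.08 after temsirolimus, against 8.07, 7.95, 8.17 and 8.08 after its vehicle. In both pairs most temsirolimus rats were lower. The change of -0.33 ± 0.13 was not called (adjusted p = 0.188, limma). It was called without the liver of rat 7M78 and the hearts of rats 6M68 and 4M46 (adjusted p = 0.0403), none of which was in this comparison. The groups of a tissue share an estimate of the spread.

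Some target genes of ATF4 fell in liver at this time. Of 29 measured ATF4 target genes (30 listed), 0 rose and 7 fell in liver 24 h after temsirolimus alone, with a median change of -0.22 beside 0.01 for all genes. Of all genes 2.3% fell and 0.788% rose in this comparison. Nupr1, a small stress-induced chromatin protein, changed by -1.78 ± 0.29 (adjusted p = 2.67e-05), and Phgdh and Psat1, enzymes of serine synthesis, by -1.90 ± 0.42 and -1.84 ± 0.44. The others were Asns (asparagine synthetase), Psph (serine synthesis), Nars1 (asparaginyl-tRNA synthetase) and Eif4ebp1 (an inhibitor of cap-dependent translation). In rats with an oral drug 0 rose and 10 fell (median -0.24, all genes 0.03), where 1.88% of all genes fell and 5.98% rose. Without the liver of rat 4M48 the count with temsirolimus alone was 6, and without that of rat 7M78 the count with an oral drug was 8. In heart and bone marrow 0 rose and 0 fell with temsirolimus alone (medians -0.09 and -0.05), where only 0.239% and 0.288% of all genes fell.

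Of 15 measured genes of the IRE1 and ATF6 branches of the unfolded protein response (16 listed), 0 rose and 10 fell in liver with temsirolimus alone at 24 h (median -0.44), beside the 2.3% of all genes that fell. The chaperone cofactor Sdf2l1 changed by -1.19 (adjusted p = 1.46e-07). In rats with an oral drug 9 fell (1.88% of all genes) and 1, the transcription factor Xbp1, rose by 0.46; without the liver of rat 7M78 10 fell and 0 rose. In heart 3 fell with temsirolimus alone and 7 with an oral drug, where 0.239% of all genes fell in each. Hepatocyte markers (15 of 15) were high in some of these hearts, at 6.22 to 12.07 after temsirolimus alone against 6.14 to 7.80 after the vehicles, and at 6.08 to 11.80 after temsirolimus with an oral drug against 6.20 to 8.83 after the oral drug alone. With their level as a covariate 5 and 8 of the 15 genes fell. In bone marrow 2 fell with temsirolimus alone (0.288% of all genes) and 0 with an oral drug (0.717%). Of 15 genes for eIF2alpha kinases, phosphatase subunits and eIF2B, which act upstream of Atf4, 0 rose and 2 fell in liver with temsirolimus alone (Dnajc3, an inhibitor of the kinase PERK, and Eif2b3, an eIF2B subunit).

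Ddit4 was set beside the genes that share its known inducers and its function. Of 14 brakes on mTORC1 and of 14 hypoxia response genes, 0 rose and 0 fell in liver at 24 h with temsirolimus alone, and of 13 measured glucocorticoid-responsive genes (14 listed) 0 rose and 1 fell, Tat, a liver enzyme of tyrosine breakdown. Of 18 bZIP partners 0 rose and 0 fell. Of 16 measured immediate early genes (18 listed) 1 rose, the transcription factor Egr1, by 1.65 (adjusted p = 0.00127), and in rats with an oral drug 4 rose (Egr1, Ier2, Jun and Myc) and 0 fell, a count of 4 also without the liver of rat 7M78. Of all genes, 0.788% rose and 2.3% fell with temsirolimus alone, and 5.98% rose and 1.88% fell in rats with an oral drug.

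Trib3, the pseudokinase, was highest in bone marrow at 6 h in rats given sorafenib or its vehicle. It was 9.18, 8.97, 7.62 and 8.01 after temsirolimus then sorafenib and 8.84, 9.19, 7.90 and 8.04 after the temsirolimus vehicle then sorafenib. With F68/PG/PEG400 it was 8.96, 7.63, 7.46 and 7.58 after temsirolimus and 8.22, 7.62, 7.53 and 7.59 after the temsirolimus vehicle. With water it was 7.10, 7.24, 7.34 and 7.40 after temsirolimus and 7.41, 7.47, 7.09 and 7.11 after its vehicle. In each list the first 2 rats are of array set A and the other 2 of set B, and the values near 9 were all in set A. The 8 sunitinib rats lay between 7.12 and 7.59, and the 8 water rats between 7.09 and 7.47.

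Sorafenib alone changed Trib3 by 0.75 ± 0.18 (8.49 against 7.74, n = 4 each), which was not called (adjusted p = 0.0949, limma) in a comparison that called 0.0211% of genes. The change was 1.09 in set A and 0.40 in set B. Without the arrays of rats 4M45 and 4M48, neither of which was in this comparison, the adjusted p was 0.0413 in limma. After temsirolimus, sorafenib changed Trib3 by 0.53 ± 0.18 (8.44 against 7.91, n = 4 each, adjusted p = 0.0316), a call in a comparison that called 22.1% of genes. Without the bone marrow of rat 4M45, 1 of the F68/PG/PEG400 rats, it was 0.46 with an adjusted p of 1. Leaving out rats 6M63, 4M40, 6M64 or 6M70 also ended the call, with changes of 0.36, 0.35, 0.44 and 0.60.

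The oral vehicles differed in Trib3 as well. F68/PG/PEG400 averaged 7.83 and water 7.27 over the 16 rats without an oral drug, a change of 0.55 ± 0.13 (adjusted p = 0.0477, limma; 0.176% of genes called). It was the only one of 45 tests of the oral vehicles called (0.0438% of all gene tests), and 2 had an unadjusted p under 0.05, beside 6.53% of all gene tests. The change was 0.80 in set A and 0.31 in set B. The call was lost without array-set terms (adjusted p = 0.119), and when any 1 of 10 of the 16 rats was left out (1M3, 1M4, 1M9, 1M10, 2M15, 2M21, 2M22, 3M27, 3M28 and 4M45), with changes of 0.48 to 0.59 and adjusted p up to 0.157. The other 2 Trib3 probe sets gave 0.32 (adjusted p = 0.0709) and 0.38 (0.112). The effect of sorafenib minus that of sunitinib was 0.72 ± 0.26 for Trib3 (adjusted p = 0.549).

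Chac1, which encodes an enzyme of glutathione breakdown and is a known ATF4 and CHOP target, was the gene whose pattern over the 72 groups was most like that of Trib3. In bone marrow at 6 h it was 8.76, 8.72, 7.27 and 7.45 after temsirolimus then sorafenib and 8.60, 8.81, 7.60 and 7.54 after the temsirolimus vehicle then sorafenib. With F68/PG/PEG400 it was 7.80, 7.12, 8.45 and 6.80 after temsirolimus and 7.77, 7.01, 6.93 and 6.80 after the temsirolimus vehicle. The value of 8.45 is that of rat 4M45. As with Trib3, the 2 sorafenib rats of set A were above those of set B in both groups. Sorafenib alone changed Chac1 by 1.01 ± 0.25 (adjusted p = 0.0949) and the oral vehicle by 0.54 ± 0.18 (adjusted p = 0.0748), or by 0.34 without rat 4M45 (adjusted p = 0.747). Chac1 was picked for likeness to Trib3 over medians that include these groups, so its changes are no separate test.

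Ddit3 in bone marrow at 6 h was 9.14, 9.74, 8.65 and 8.55 after the temsirolimus vehicle then sorafenib, against 8.78, 8.46, 8.48 and 8.46 after that vehicle then F68/PG/PEG400. It was 9.07, 9.11, 8.35 and 8.33 after temsirolimus then sorafenib, against 9.03, 8.42, 8.78 and 8.37 after temsirolimus then F68/PG/PEG400. The groups overlapped in both pairs. Sorafenib alone changed Ddit3 by 0.48 ± 0.13 (adjusted p = 0.14, limma), with 0.82 in set A and 0.13 in set B, and after temsirolimus the levels were 8.71 and 8.65.

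**Figure D4:**
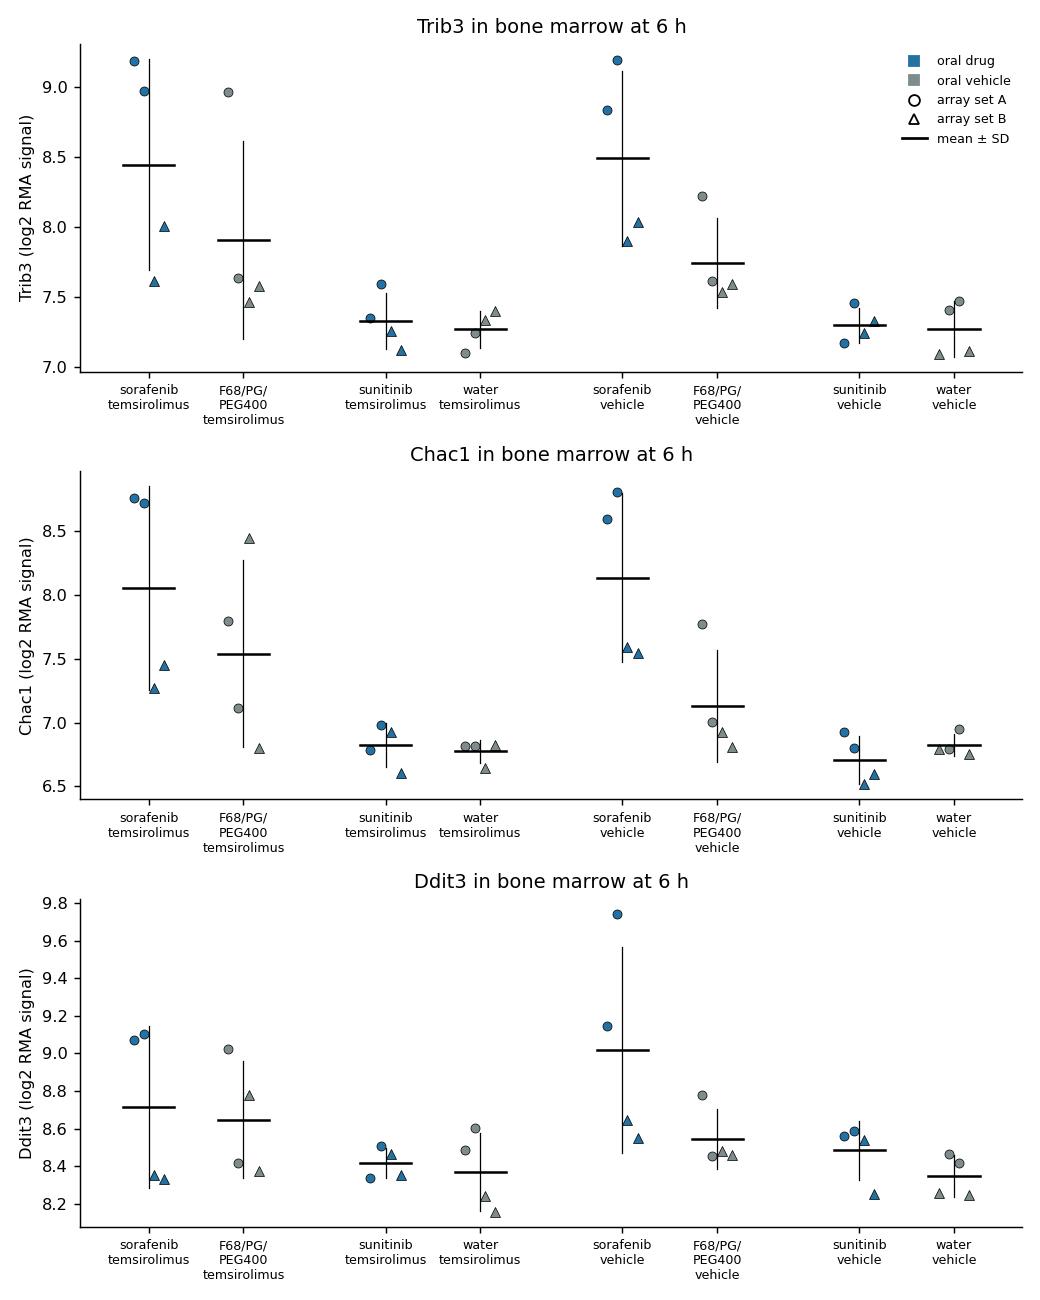
Trib3, Chac1 and Ddit3 (log2 RMA signal) in bone marrow at 6 h for each rat, with each oral drug left of its vehicle, after temsirolimus on the left side and after its vehicle on the right; circles are array set A, triangles set B, and lines the mean ± SD of 4 rats. The sorafenib rats of set A reach 9.19 for Trib3, while all sunitinib and water rats lie at 7.59 or below.

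Atf4 in bone marrow at 6 h was called through 1 array. It was 12.49, 12.47, 11.95 and 12.09 after temsirolimus then sorafenib, against 12.39, 12.19, 9.56 and 11.94 after temsirolimus then F68/PG/PEG400. The value of 9.56, from rat 4M45, was the lowest of the 96 bone marrow arrays. With it the change was 0.73 ± 0.19 (adjusted p = 0.02, limma), and without it 0.11 with an adjusted p of 1. Without rat 6M70 it was 0.72 with an adjusted p of 0.063. Ddit4 in the same array, 6.40, was the lowest too, where the other 3 rats of the group had 9.12, 8.82 and 8.12. Temsirolimus alone changed Atf4 by -0.36 ± 0.13 at this time (adjusted p = 0.159), with rat 4M45 among the temsirolimus rats, and by -0.06 without it (adjusted p = 0.951).

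Atf3 was high in heart at 1 h and lower at later times. In the 8 rats given vehicles only it lay between 6.41 and 9.15 at 1 h, with a median of 7.71, between 5.80 and 6.55 at 6 h, with a median of 6.27, and between 6.01 and 6.75 at 24 h, with a median of 6.41. The hearts at 1 h overlapped the later ones only at their low end. The means were 7.69 ± 0.89, 6.21 ± 0.26 and 6.42 ± 0.23 (SD, n = 8 each). At 6 h against 1 h the change was -1.47 ± 0.24 (adjusted p = 2.67e-05, limma; 1.08% of genes called), and at 24 h against 1 h it was -1.27 ± 0.24 (adjusted p = 0.00109; 0.661% of genes called). In the 24 rats given a drug, Atf3 averaged 7.33 ± 0.68 at 1 h, 6.12 ± 0.34 at 6 h and 6.25 ± 0.31 at 24 h. The means of these drug rats are not part of the changes above, but their hearts are in the same fit and its estimate of the spread.

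Each change was negative in both array sets, -1.06 and -1.88 at 6 h and -0.91 and -1.63 at 24 h in sets A and B, and stayed called without any 1 of the 16 rats. Time after dosing, hour of the day and the plates on which a time was run cannot be told apart. Among 5 genes in each tissue, the F test over the 3 times called Atf3 in heart (adjusted p = 1.48e-05) and no other, where 0.281% of genes passed in bone marrow, 2.41% in the heart and 4.89% in the liver.

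The genes most like Atf3 over the 72 group medians were Nr4a1, an immediate early nuclear receptor, Otud1, a deubiquitinase, and Tnfrsf12a, the receptor of TWEAK (r = 0.83, 0.79 and 0.76 among 12368 genes). The likeness lay in heart, where r was 0.90 for Nr4a1, while it was 0.04 in bone marrow and 0.05 in liver; these are correlations of 24 group medians per tissue that share arrays within a group. In vehicle hearts at 6 h against 1 h, Otud1 changed by -1.10 ± 0.14 (adjusted p = 9.26e-08) and Tnfrsf12a by -0.73 ± 0.16 (0.00628), and Nr4a1 by -0.54 ± 0.22 (0.359), which was not called. The genes were picked for likeness to Atf3 over medians that include these hearts, so their changes are no separate test. Of the 16 immediate early genes 4 passed the F test of time in heart and 6 in liver, and of the 13 glucocorticoid-responsive genes 6 and 8.

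**Figure D5:**
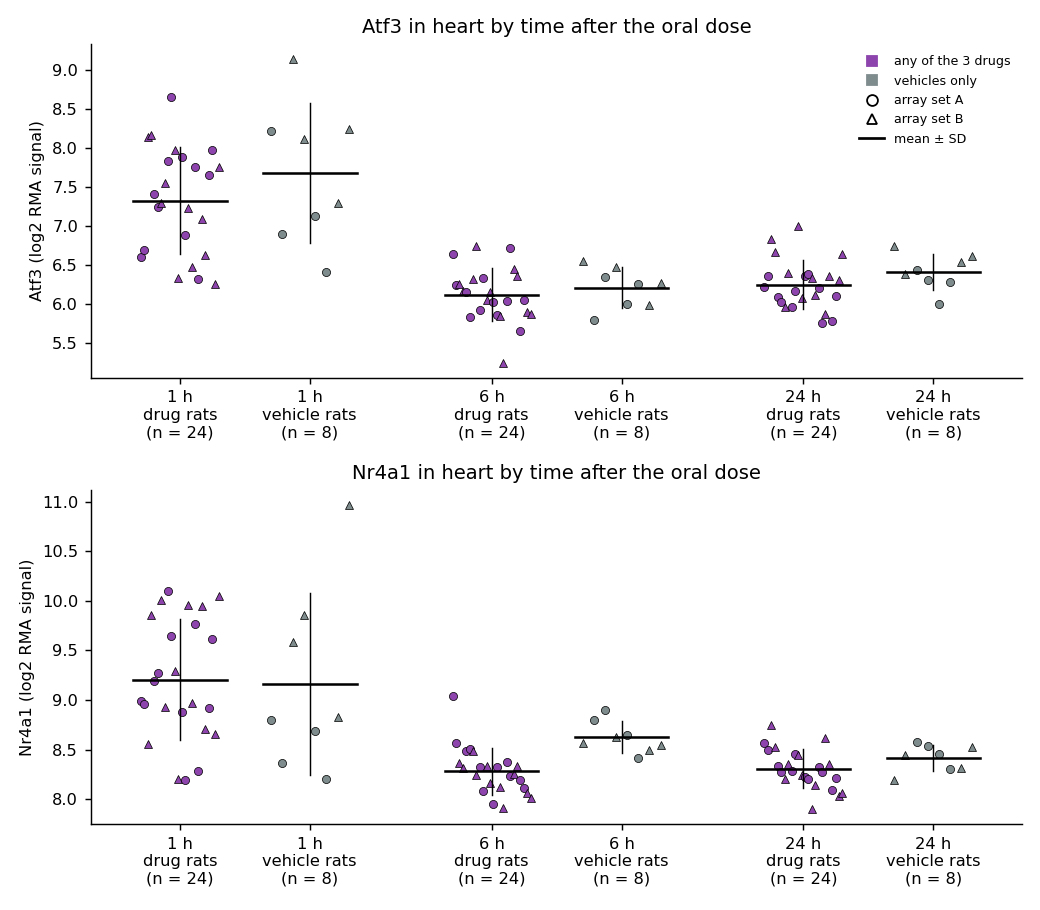
Atf3 and Nr4a1 (log2 RMA signal) in heart at 1, 6 and 24 h, for the 24 rats given any of the 3 drugs and the 8 given vehicles only at each time; circles are array set A, triangles set B, and lines the mean ± SD. Atf3 reaches 9.15 at 1 h, and at 6 and 24 h no rat exceeds 7.01.

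Sunitinib alone had the widest change of Atf3. In heart at 1 h it was 7.76, 6.32, 7.09 and 6.64 after the temsirolimus vehicle then sunitinib, against 8.22, 6.90, 9.15 and 8.12 after that vehicle then water. The groups overlapped through the water rat at 6.90. The change was -1.14 ± 0.34, and the adjusted p was 1 in limma, in a comparison where 0.0% of genes were called and 416 had an unadjusted p under 0.05. It was -0.52 in set A and -1.77 in set B. After temsirolimus the same change was 0.30, and the interaction was 1.44 ± 0.48 (adjusted p = 1).

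After sorafenib, Atf3 was low in liver at 6 h without passing the test. In liver at 6 h Atf3 was 5.68, 5.51, 5.61 and 5.67 after the temsirolimus vehicle then sorafenib, against 5.85, 6.55, 5.80 and 6.19 after that vehicle then F68/PG/PEG400. The groups did not overlap. It was 5.49, 5.57, 5.62 and 5.51 after temsirolimus then sorafenib, against 5.87, 5.53, 6.14 and 5.82 after temsirolimus then F68/PG/PEG400, with 1 rat of the vehicle group, at 5.53, among the sorafenib rats. The change with sorafenib alone was -0.48 ± 0.15 (5.62 against 6.10) and did not pass (adjusted p = 0.286), where 0.225% of genes were called, and after temsirolimus it was -0.30 ± 0.15 (adjusted p = 1). In heart at 6 h, where sorafenib alone called 2.98% of genes, Atf3 changed by -0.26 and was not called, and 4 of the 16 immediate early genes fell and 0 rose (median -0.24, all genes -0.03), beside 1.77% of all genes that fell.

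Ddit3 in heart at 6 h was 9.73, 9.83, 9.92 and 10.10 after the temsirolimus vehicle then sorafenib, against 9.56, 9.58, 9.68 and 9.50 after that vehicle then F68/PG/PEG400. These sorafenib rats were all higher. The change was 0.31 ± 0.15 and that of sunitinib alone 0.31 ± 0.15 (adjusted p = 0.257 and 0.247). It was 9.41, 9.53, 9.50 and 9.62 after temsirolimus then sorafenib, against 9.59, 9.40, 9.48 and 10.49 after temsirolimus then F68/PG/PEG400. Here the groups overlapped, and the change was -0.22 ± 0.15 (adjusted p = 0.465), or 0.016 without the heart of rat 4M46, which had 10.49. Sunitinib after temsirolimus gave 0.06 ± 0.15 (adjusted p = 1).

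In rats with an oral drug temsirolimus changed Ddit3 in heart at 6 h by -0.39 ± 0.11 (9.53 against 9.91, n = 8 each, adjusted p = 0.064, limma). The hepatocyte markers averaged 6.11 to 11.48 in these hearts after temsirolimus, with a median of 7.93, against 5.93 to 7.12 after its vehicle, with a median of 6.23. With their level as a covariate the change was -0.35 (adjusted p = 0.088), and without the hearts of rats 6M68 and 4M46, which were not in the comparison, the same change had an adjusted p of 0.0089.

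In liver at 24 h after sunitinib alone, which called 9.99% of genes, none of the 5 genes was called. Ddit3 was 7.96, 6.51, 8.18 and 8.32 after the temsirolimus vehicle then sunitinib, against 8.04, 8.04, 8.05 and 8.47 after that vehicle then water. The value of 6.51 is that of rat 7M78, the lowest of the 96 livers, as was its Atf4 of 10.42. The change was -0.41 (adjusted p = 0.0982), and without that array -0.02 (adjusted p = 1). Over all tissues and times 1, 2 and 3 tests with sunitinib alone were called when the liver of rat 7M83, 7M77 or 7M84 was left out, which leaves 7M78 as 1 of 3 rats, and none when 7M78 was. The number of all genes called in this liver comparison moved widely too. It ran from 0 to 6210 of 14218 when 1 of its 8 rats was left out.

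In bone marrow at 1 h, Trib3 was 7.41, 7.29, 7.35 and 7.30 after the temsirolimus vehicle then sunitinib, against 7.49, 7.86, 7.81 and 7.89 after that vehicle then water. All 4 sunitinib rats were lower, and the change of -0.42 ± 0.18 had an adjusted p of 1 in limma. Ddit4 changed by -0.51 ± 0.21 in the same comparison (adjusted p = 1). After temsirolimus, sunitinib gave -0.01 ± 0.18 for Trib3 and 0.01 ± 0.21 for Ddit4.

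Trib3 in liver was lower at 24 h than at 6 h in rats given vehicles only. It lay between 7.72 and 8.19 at 24 h and between 8.20 and 8.78 at 6 h, with no overlap. The change was -0.43 ± 0.14 (adjusted p = 0.047, limma; 4.75% of genes called), and the other probe sets gave -0.53 and -0.63, both called. It was lost when any 1 of 12 of the 16 rats was left out (all but 1M4, 1M5, 1M10 and 2M17, adjusted p up to 0.139). Ddit4 in vehicle hearts averaged 9.22, 9.07 and 8.63 at 1, 6 and 24 h, and in bone marrow 8.81, 8.68 and 8.33, with no call in the F test (adjusted p = 0.141 and 0.353). In liver it averaged 8.12, 8.42 and 8.61.

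For each gene the most alike genes over the 72 group medians were found. For Ddit3 they were Herpud1, a factor of ER-associated degradation (r = 0.70; the bone marrow alone gave 0.83, the heart 0.57 and the liver 0.78), Hps4, a subunit of a complex for lysosome-related organelles, and Topbp1, a factor of DNA replication checkpoints. For Trib3 they were Chac1 (r = 0.78; 0.94 from bone marrow, 0.15 from heart and 0.38 from liver), Sars1, the seryl-tRNA synthetase (0.74), and N4bp2l1. For Ddit4 they were Dnajb4, a heat shock protein of the HSP40 family (0.66), Smim11 and Ssr2, a subunit of the translocon-associated complex of the ER. For Atf4 they were Pelo, a ribosome rescue factor (0.66), Sft2d1 and Cks1b, a subunit of cyclin-dependent kinases. Sars1, like Trib3, was higher with F68/PG/PEG400 than with water in bone marrow at 6 h, by 0.36 ± 0.08 (adjusted p = 0.0183), and by 0.28 without rat 4M45 (adjusted p = 0.193). This is no separate test, since Sars1 was picked for likeness to Trib3 over medians that include these groups.

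Among rats of the same group, the genes varied together in some tissues. Over the 96 rats, with group and array-set means removed, 12 of 30 pairs of the 5 genes within a tissue had an adjusted p under 0.05 for both Pearson's r and Spearman's rho (permutation tests, 100000 permutations), all of them positive. Pairs of other genes were not tested, so the share among all gene pairs is not known. Ddit4 and Trib3 in liver had r = 0.57 and rho = 0.47 (permutation tests, adjusted p = 0.0001 and 0.00015). Both came from an unadjusted p of 1e-05, the smallest these permutations give. The r of this pair was 0.44 without rats 7M78 and 7M84, and 0.57 in both array sets. Ddit3 and Trib3 in bone marrow had r = 0.47 and rho = 0.34 (adjusted p = 0.0001 and 0.003075; 0.60 in set A and 0.25 in set B; 0.39 without rats 4M40 and 8M88). Atf4 and Ddit4 in bone marrow had r = 0.63 and rho = 0.35 (adjusted p = 0.0001 and 0.0021), and r = 0.37 without rats 4M39 and 4M45.

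The same gene was also compared between tissues of a rat. Of 15 such pairs 1 passed both tests, Ddit4 in bone marrow and heart (r = 0.40, rho = 0.33, adjusted p = 0.0012 and 0.01815). It was 0.35 without the 2 rats farthest from the median, 0.59 in array set A and 0.18 in set B. Other genes were not compared in this way, and a source of this variation was not tested.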

How the data were processed

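Affymetrix rat genome arrays from 96 rats, 1 for each of 3 tissues, were analysed. The deposited values are log2 RMA signals, which the authors made from the scanned arrays; the version of RMA is not given in the sources used here. They were used as deposited. Precision depends on how many rats each group holds, since arrays carry no depth. Probe sets were named from the platform annotation: of 31099, 20832 had 1 symbol, 436 several and 9831 were not listed, and only those with 1 symbol were used, 1 per gene (14218 genes; 13163 with the same probe set in all tissues).

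Each tissue was fitted in limma 3.58.1 (R 4.3.3) with 24 group means and a term for the array set at each of 3 times; whether the sets match the 2 dosing days the paper mentions is not stated. Adjusted p-values are Benjamini-Hochberg values over all genes of a comparison. Tissues were compared within rats. Correlations used residuals and SciPy 1.17.1. Promoters came from RefSeq (GRCr8). The methods were tested on simulated data.

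Alternatives were a filter at a mean log2 signal of 6, repeated quantile normalization, no array-set terms, another variance model, covariates for hepatocyte markers or for the arrays marked N2, other Trib3 probe sets, omission of the 2 arrays the paper names or of 3 arrays that earlier results set apart, and omission of each rat. Named genes were the 5 genes, the 3 most like each over the group medians and called members of the lists. The genes and 19 lists were chosen with earlier results of these data known.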

Additional observations from a re-analysis of the deposited data

Results flagged for a closer look

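Of 360 sets of 4 rats (5 genes in each group of each tissue), 19 held a rat whose gap to the nearest of the others, divided by the range of the group, was above Dixon's 95% critical value; chance gives about 1 in 20, which is near the number found. In bone marrow at 6 h, Atf4 was 9.56 in rat 4M45 after temsirolimus then F68/PG/PEG400, with 11.94 to 12.39 in the others, and Trib3 was 8.96 in rat 4M39 of that group, with 7.46 to 7.63 in the others. After the temsirolimus vehicle then F68/PG/PEG400, rat 2M15 was the highest for both Trib3 (8.22, others 7.53 to 7.62) and Ddit3 (8.78, others 8.46 to 8.48). After that vehicle then sunitinib, Ddit3 was 8.25 in rat 7M82, with 8.54 to 8.59 in the others. In bone marrow at 1 h, Atf3 was 4.48 in rat 2M19 after that vehicle then F68/PG/PEG400, with 4.37 to 4.38 in the others, and 4.14 in rat 7M79 after that vehicle then sunitinib, with 4.57 to 4.64 in the others. At 24 h, Trib3 was 7.17 in rat 5M60 after temsirolimus then sunitinib, with 7.40 to 7.43 in the others.

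In liver at 24 h, Ddit3 was 8.08 in rat 4M48 after temsirolimus then F68/PG/PEG400, with 7.67 to 7.70 in the others, and 8.47 in rat 1M12 after the temsirolimus vehicle then water, with 8.04 to 8.05 in the others. In liver at 6 h, Atf3 was 5.79 in rat 7M76 after the temsirolimus vehicle then sunitinib, with 5.96 to 5.98 in the others. Atf4 was 11.59 in the liver of rat 6M66 at 24 h and Trib3 8.48 in that of rat 6M62 at 1 h, both after temsirolimus then sorafenib, with 11.83 to 11.86 and 8.18 to 8.22 in the others. In heart at 24 h, Atf3 was 6.12 in rat 6M72 after temsirolimus then sorafenib, with 6.34 to 6.38 in the others, and Ddit3 was 9.46 in rat 6M65 of that group, with 9.35 to 9.36 in the others. At that time Ddit3 was 9.04 in rat 2M17 after the temsirolimus vehicle then F68/PG/PEG400 (others 9.73 to 9.78), Atf4 was 10.87 in rat 1M5 after that vehicle then water (others 11.38 to 11.42), and Trib3 was 6.67 in rat 8M96 after that vehicle then sorafenib (others 6.39 to 6.43). In heart at 6 h, Ddit3 was 10.49 in rat 4M46 after temsirolimus then F68/PG/PEG400, with 9.40 to 9.59 in the others.

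The change of Ddit4 with temsirolimus alone at 24 h differed between tissues (F test within rats, limma, adjusted p = 0.0295), with that in liver minus that in heart at -0.95.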

How the results depend on the processing

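Of 39 results followed, 17 kept their direction and side of the threshold (counts, their size within 1.5 times) in every alternative other than leaving out each array in turn. No called change reversed. Of those not called, Ddit3 in heart at 6 h, sorafenib after temsirolimus, was 0.016 without the 3 arrays set apart and ran from -0.33 to 0.016 without 1 rat; in bone marrow at 6 h with temsirolimus alone Atf4 was 0.0083 and Ddit4 0.23 in water rats. In F68/PG/PEG400 rats, which include 4M45, these were -0.74 and -0.76 (adjusted p = 0.0192 and 0.0202). Ddit4 in liver at 24 h with temsirolimus alone was -1.41 with water and -0.66 with F68/PG/PEG400, neither called (adjusted p = 0.065 and 0.439); in rats with an oral drug it was -0.48 in array set A and -1.88 in set B. Its change in liver minus heart, with the rat as a replicate block, was not called at -0.95 with no replicate block (adjusted p = 0.117), at -0.95 without array-set terms (0.169) and at -0.85 without the 2 arrays the paper names (0.0979), and ran from -1.10 to -0.81 without 1 rat. Trib3 in bone marrow at 6 h, F68/PG/PEG400 minus water, was not called at 0.55 without array-set terms (0.119), at 0.59 without the 2 arrays (0.0927) and at 0.32 and 0.38 in the other probe sets (0.0709 and 0.112), and ran from 0.41 to 0.64 without 1 rat; Trib3 in vehicle livers, 24 h minus 6 h, ran from -0.48 to -0.38.

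Calls among the 5 genes for the oral vehicle were 0 without array-set terms and 0 without the 2 arrays (0 to 2 without 1 rat). For sorafenib alone 1 was called (Trib3) without the 2 arrays, neither of which was in its comparison. For temsirolimus alone 2 were called without the 3 arrays set apart, and 1 to 2 without 1 rat (2 without the bone marrow of 4M39, 4M40 or 4M46). For sunitinib alone 0 to 3 were called without 1 rat. The calls among all 14218 genes moved as well when 1 rat was left out. They ran from 0 to 2995 for temsirolimus alone and from 1 to 4298 for the oral vehicle in bone marrow at 6 h. For sunitinib alone in liver at 24 h they ran from 0 to 6210. In the F test of time 2 passed without the 2 arrays (with Ddit4 in bone marrow, adjusted p = 0.0494) and 3 without the 3 arrays (with Atf4 and Trib3 in liver, 0.038 and 0.0398). None of these arrays was of a rat given vehicles only, and the share of all genes passing this F test was not counted without them. At a mean signal of at least 6, Atf3 in bone marrow and liver was not tested. The cause of these differences was not tested. The counts of genes in lists without 4M48 or 7M78 and with the hepatocyte covariate, and Chac1 and Sars1 without 4M45, were chosen after seeing the data.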
